A study of Mus musculus with 8 samples.

Results

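Messenger RNA of 10 regulators of cell survival and death was followed in mouse blood stem and progenitor cells labelled Runx1 deficient (Mut) or WT. The 10 genes were chosen by name from the 37991 gene identifiers counted, with earlier results of these data known, and all 10 had an entry. They are the survival genes Bcl2, Bcl2l1, Bcl2l2 and Mcl1, the BH3-only genes Bcl2l11, Bid, Bad and Bmf, the effector Bak1, and the apoptosome gene Apaf1. The cells were Flt3- LSK cells of bone marrow, the fraction in which haematopoietic stem cells and early progenitors are found, and 24000 were sorted for each sample. The 2 samples labelled Mut came from C57BL/6J mice described as Runx1 deficient, and the 2 WT samples came from C57BL/6J mice that carried floxed Runx1 (Runx1f/f). Runx1 is a transcription factor that blood stem cells need in order to form and mature, and the study was designed to set cells deficient in it against normal cells. Each sample gave 2 libraries, one of polyA-selected RNA (mRNA library) and one of total RNA, with ERCC spike-in transcripts added to both, so that 8 libraries were analysed. The sources used here do not give age, sex, the Cre driver, the deleted exons, or whether samples of 1 group are separate animals.

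The BCL2 family decides whether the outer membrane of the mitochondrion is opened, the committing step of the intrinsic pathway of apoptosis. Survival members hold the pore-forming effectors BAK and BAX in check, and BH3-only members, switched on by stress, bind the survival members or act on the effectors. Once the membrane is open, cytochrome c reaches APAF1, which assembles into the apoptosome and activates caspase 9. In mouse bone marrow, MCL1 is known to be needed for the survival of haematopoietic stem cells, BCL2 is known to protect them when it is overexpressed, and BCL-xL, the product of Bcl2l1, keeps erythroid precursors and platelets alive.

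Runx1 binds DNA at TGTGGT and, less strongly, at TGCGGT, and the bases before the start of each gene were therefore searched for both. RefSeq start sites on GRCm38.p6 gave 16 windows of 250 bases upstream for the 10 genes. TGTGGT stood on either strand in 2 of these 16 windows, against 14% of all 32851 windows in the table, and TGCGGT stood in 3, against 5.1%. The 3 were the Apaf1 window and both windows of Bcl2l11, and the window of Bcl2l2, which also passed the test in total RNA, held neither motif. The Bcl2 window is shown because Bcl2 passed the test in both kinds of library. The Apaf1 window is shown because Apaf1 passed in total RNA and holds TGCGGT, and the windows of Bmf and Bak1 are shown because they hold TGTGGT. Each is written 5′ to 3′ on the strand of its gene, all on the minus strand, with TGTGGT or TGCGGT in capitals, or its reverse complement where the match is on the other strand.
Bcl2 (chr1:106714291-106714540): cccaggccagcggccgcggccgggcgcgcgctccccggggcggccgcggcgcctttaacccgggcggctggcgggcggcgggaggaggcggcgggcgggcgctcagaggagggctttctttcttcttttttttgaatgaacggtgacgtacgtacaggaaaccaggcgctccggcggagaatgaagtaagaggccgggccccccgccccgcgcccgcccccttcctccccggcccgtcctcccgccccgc
Apaf1 (chr10:91082744-91082993): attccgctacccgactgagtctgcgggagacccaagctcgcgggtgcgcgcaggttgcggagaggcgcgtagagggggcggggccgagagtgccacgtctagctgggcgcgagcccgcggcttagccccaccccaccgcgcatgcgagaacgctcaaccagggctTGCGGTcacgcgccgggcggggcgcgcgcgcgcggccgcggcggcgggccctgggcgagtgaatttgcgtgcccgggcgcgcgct
Bmf (chr2:118547600-118547849): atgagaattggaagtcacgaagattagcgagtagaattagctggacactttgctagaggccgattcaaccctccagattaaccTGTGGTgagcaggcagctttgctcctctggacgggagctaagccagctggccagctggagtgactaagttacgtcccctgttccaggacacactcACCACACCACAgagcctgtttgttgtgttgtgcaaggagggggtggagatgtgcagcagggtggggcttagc
Bak1 (chr17:27028628-27028877): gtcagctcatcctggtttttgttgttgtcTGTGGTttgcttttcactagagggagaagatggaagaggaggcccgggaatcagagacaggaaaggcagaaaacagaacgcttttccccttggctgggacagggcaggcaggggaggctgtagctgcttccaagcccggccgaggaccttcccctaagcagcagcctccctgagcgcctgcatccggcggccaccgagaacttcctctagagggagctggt
The Bcl2 window held neither motif and was 74.8% G and C, with 36 CpG pairs. Apaf1 held 1 TGCGGT that began 85 bases before the start. The Bmf window belongs to 1 of its 3 start sites and held 3 matches to TGTGGT, at 167, 72 and 67 bases before the start, of which the last 2 overlap. Bak1 held 1 match at 221 bases before the start. These are matches of letters and not measured binding sites, and none of these libraries measured binding.

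The mRNA libraries held 35096252 to 37924699 gene counts each, and the total RNA libraries, where ribosomal RNA took 93.3 to 94.5% of all counts, held 967694 to 1218437. The 10 genes had 264 to 15881 counts each in mRNA and 15 to 469 in total RNA, so that small differences were less detectable in total RNA. Levels are CPM, gene counts scaled to 1000000 per library after TMM normalisation. Runx1 itself had 749 and 941 CPM in Mut-labelled mRNA libraries, against 200 and 207 CPM in WT, a log2 fold change of 2.05 with an edgeR adjusted p of 0.00753. That direction goes against the label, and counts outside a deleted part of the gene do not check it, so the groups are called Mut-labelled and WT. Of 6 markers of the sorted cells edgeR called 1 in mRNA, Cd48, higher in Mut-labelled libraries, against 1.75% of all genes. It had 181 and 179 CPM in Mut-labelled and 47.6 and 42.6 CPM in WT mRNA libraries (edgeR adjusted p 0.00451). Kit was high, at 953 and 1099 CPM in Mut-labelled and 890 and 883 CPM in WT mRNA libraries. Ly6a had 32.4 and 26.0 CPM in Mut-labelled and 23.7 and 38.5 CPM in WT. Ly6a and Cd34 overlapped, and Slamf1 was higher in both Mut-labelled libraries without passing (edgeR adjusted p 0.159). Flt3, absent from the surface by the sort, was detected at 57.3 and 87.5 CPM in Mut-labelled and 117 and 155 CPM in WT mRNA libraries.

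Of the 10 genes, Bcl2 alone passed the test in the mRNA libraries, and it was lower in Mut-labelled cells. By edgeR's quasi-likelihood test with Benjamini-Hochberg adjustment over 17128 genes, 3.64% of all genes were called, 1.75% higher and 1.89% lower. At an unadjusted p under 0.05 stood 4 of the 10, namely Bcl2, Bcl2l1, Bmf and Apaf1, against 15.7% of all genes. The Mut-labelled libraries lay wholly above WT for 5 of the 10, against 21.4% of genes, and wholly below for 1, against 23.1%. The other 4, Bcl2l2, Bid, Bad and Bak1, overlapped. As the 10 were chosen with earlier results of these data known, these shares carry no test. The median log2 fold change of the 10 was 0.23, beside -0.01 over all genes tested. With same-numbered samples set as a block, edgeR called 2870 of the 17128 genes. Bcl2l1, Mcl1, Bmf and Apaf1 were then called higher beside the fall of Bcl2. In bulk libraries such as these, fewer cells of a type and less RNA per cell cannot be told apart.

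**Figure D1:**
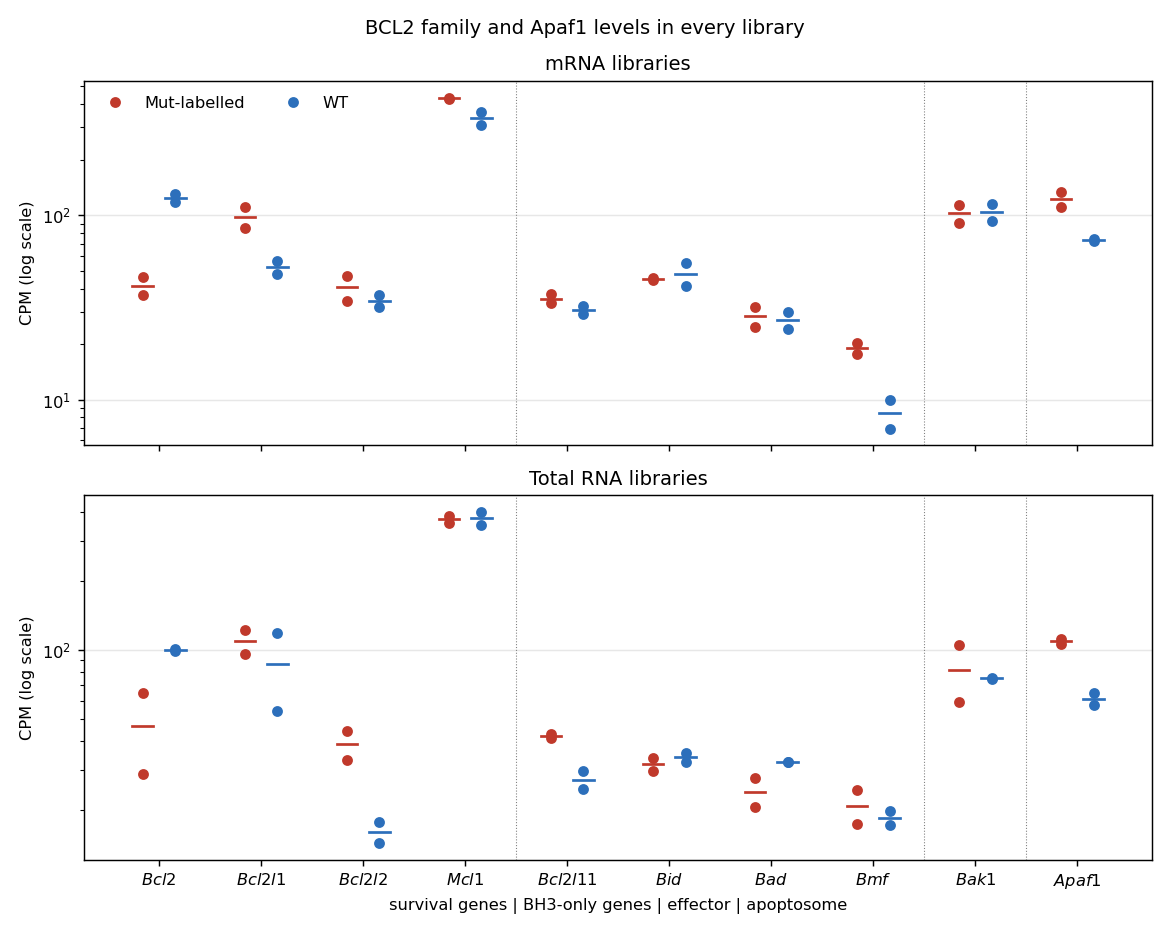
Level of each of the 10 genes in every library, in CPM on a log axis, with the mRNA libraries in one panel and the total RNA libraries in the other, Mut-labelled points left of WT points, and a dash at each mean. Bcl2 is the gene whose Mut-labelled points lie farthest below WT in mRNA libraries, at 46.0 and 36.7 CPM in Mut-labelled against 118 and 131 CPM in WT, while Bcl2l1, Mcl1, Bcl2l11, Bmf and Apaf1 lie above WT there.

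Among the survival genes, Bcl2 (ENSMUSG00000057329) fell while Bcl2l1 and Mcl1 were higher in both Mut-labelled mRNA libraries without passing the test. Bcl2 had 46.0 and 36.7 CPM in Mut-labelled mRNA libraries, against 118 and 131 CPM in WT. Its log2 fold change was -1.59 (SE 0.16, 95% interval -1.98 to -1.20), or 3.01-fold lower in Mut-labelled cells, with an edgeR adjusted p of 0.00966. It ranked 125th of all genes by p. Leaving out any 1 library kept the Bcl2 call, at -1.76 to -1.43 with edgeR adjusted p from 0.00105 to 0.0136. Scaling to the ERCC transcripts ended the call but kept the direction (log2 fold change -2.05, SE 1.08, edgeR adjusted p 0.999). The spike-in share was 0.891 and 0.381% of gene counts in Mut-labelled and 0.651 and 0.313% in WT mRNA libraries. That share was higher in replicate 1 in both groups. With ERCC scaling and same-numbered samples set as a block, Bcl2 was called at -1.998 (SE 0.139, edgeR adjusted p 1.61e-44). This setting was added after seeing the data and called 7752 of the 17128 genes. Bcl2 was called in 10 of 11 alternatives in all, whose adjusted p ran from 1.61e-44 to 0.999.

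Bcl2l1 (ENSMUSG00000007659) encodes BCL-xL in its long form, a survival protein that binds many of the same partners as BCL2. It had 110 and 85.0 CPM in Mut-labelled mRNA libraries, against 56.4 and 47.7 CPM in WT. The groups did not overlap and the level was 1.88-fold higher in Mut-labelled libraries (log2 fold change 0.91, SE 0.18, 95% interval 0.47 to 1.34), but the edgeR adjusted p was 0.0580. It passed by DESeq2 (adjusted p 0.000342), by edgeR without Mut-labelled replicate 2 (adjusted p 0.0298) and in 5 of 11 alternatives in all, whose adjusted p ran from 8.69e-06 to 0.999. The counts do not separate the long form from the short form, which promotes death.

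Mcl1 (ENSMUSG00000038612) encodes a short-lived survival protein that neutralises BIM and BAK. Its mRNA libraries had 428 and 434 CPM in the Mut-labelled group, against 310 and 361 CPM in WT. Both Mut-labelled libraries were higher, at a log2 fold change of 0.36 (95% interval -0.00 to 0.72) and an edgeR adjusted p of 0.322. Bcl2l2 (ENSMUSG00000089682), which encodes BCL-w, had 34.3 and 46.7 CPM in Mut-labelled and 31.6 and 36.8 CPM in WT mRNA libraries. These overlapped, with a log2 fold change of 0.24 (95% interval -0.26 to 0.75).

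The 4 survival genes together can be read as a composition, once counts are divided by exon length. On the scale of CPM per kilobase of merged exon, their sum was 162 and 160 in Mut-labelled mRNA libraries, against 123 and 139 in WT. Bcl2 made up 3.10 and 2.51% of that sum in Mut-labelled libraries, against 10.5 and 10.3% in WT. Bcl2l1 made up 14.9 and 11.6% in Mut-labelled libraries, against 10 and 7.51% in WT. Mcl1 took the greater part everywhere, at 77.3 and 79.4% in Mut-labelled and 73.7 and 76.2% in WT mRNA libraries. Bcl2l2 held 4.75 and 6.54% in Mut-labelled and 5.77 and 5.95% in WT mRNA libraries, and overlapped. In total RNA Bcl2 made up 4.75 and 2.18% in Mut-labelled libraries, against 7.72 and 7.49% in WT, and Bcl2l2 made up 6.71 and 5.11% in Mut-labelled libraries, against 2.24 and 2.77% in WT. The Bcl2l1 share overlapped in total RNA, at 18.0 and 14.5% in Mut-labelled and 18.0 and 8.23% in WT libraries. The total RNA sum was 148 and 144 in Mut-labelled and 143 and 143 in WT libraries, so that neither the higher sum nor the higher Bcl2l1 share of the mRNA libraries was as clear there.

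**Figure D2:**
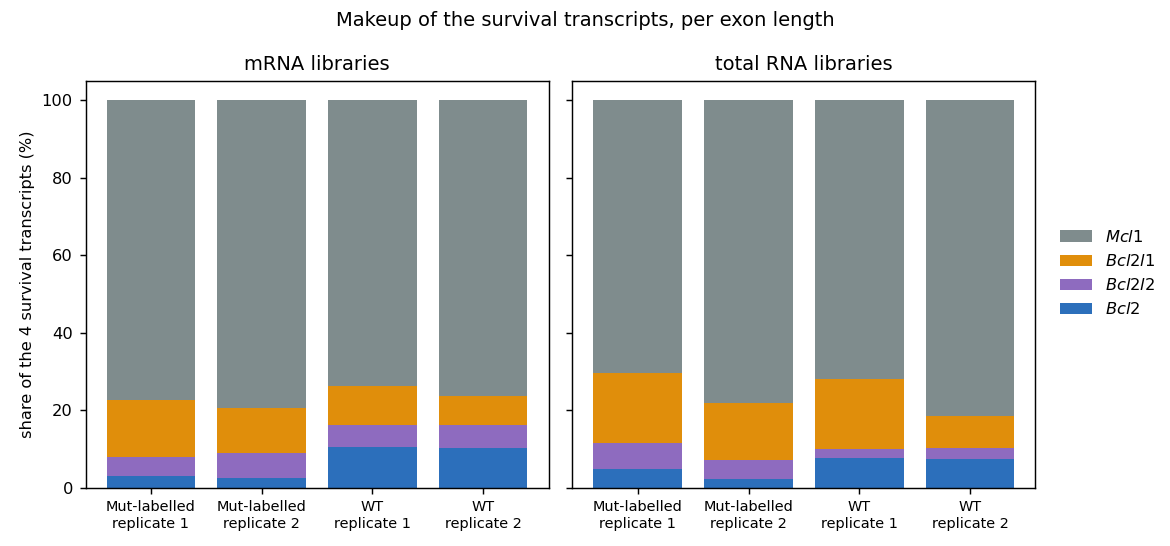
Share of each of the 4 survival genes in their summed level (percent of CPM per kilobase of exon) in each library, with Mut-labelled libraries left of WT in each panel. The Bcl2 share is 2.51 to 3.10% in Mut-labelled mRNA libraries and 10.3 to 10.5% in WT, and Mcl1 holds 70.5 to 81.5% over all 8 libraries.

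A ratio of 2 counts within a library does not depend on how the library is scaled. For Bcl2l1 over Bcl2 that count ratio was 2.40 and 2.31 in Mut-labelled mRNA libraries, against 0.477 and 0.364 in WT, so that Bcl2l1 counts exceeded Bcl2 counts in both Mut-labelled libraries and were below them in both WT libraries. The ratio was 5.65-fold higher in the Mut-labelled libraries. In total RNA it was 1.90 and 3.34 in Mut-labelled libraries, against 1.17 and 0.550 in WT, or 3.14-fold higher with no overlap. The pair was chosen after its values were seen, so the ratio carries no test, and it shows unequal change without saying which of the genes changed.

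The 4 BH3-only genes, whose products sense stress and oppose the survival members, held no edgeR call in the mRNA libraries. Bmf (ENSMUSG00000040093) alone had an unadjusted p under 0.05 and was the 1 of the 4 that DESeq2 called. Its product senses loss of attachment and cytoskeletal stress. It had the lowest counts of the 10, with 17.7 and 20.2 CPM in Mut-labelled mRNA libraries, against 6.95 and 9.99 CPM in WT. The groups did not overlap and Mut-labelled libraries were 2.24-fold higher (log2 fold change 1.16, SE 0.27, 95% interval 0.50 to 1.83), with an edgeR adjusted p of 0.0905. It passed by edgeR without WT replicate 2 (adjusted p 0.0373) and in 5 of 11 alternatives in all, whose adjusted p ran from 0.00124 to 0.999.

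Bcl2l11 (ENSMUSG00000027381) encodes BIM, a potent activator of apoptosis in blood cells. It had 33.2 and 37.3 CPM in Mut-labelled and 32.1 and 29.0 CPM in WT mRNA libraries, higher in both Mut-labelled libraries by a log2 fold change of 0.21 (95% interval -0.20 to 0.61). Bid (ENSMUSG00000004446), which links death receptors to the mitochondrion, had 45.6 and 44.6 CPM in Mut-labelled libraries, between the 55.0 and 41.2 CPM of WT. Bad (ENSMUSG00000024959), whose product is held inactive by growth factor signalling, had 31.6 and 24.9 CPM in Mut-labelled and 29.7 and 24.1 CPM in WT mRNA libraries. The 95% intervals of the log2 fold change were -0.54 to 0.35 for Bid and -0.45 to 0.59 for Bad, so that a moderate change in either direction was not detectable.

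Bak1 (ENSMUSG00000057789), which encodes the pore-forming effector BAK, overlapped between the groups. It had 113 and 90.9 CPM in Mut-labelled and 114 and 93.1 CPM in WT mRNA libraries, a log2 fold change of -0.02 with a 95% interval of -0.45 to 0.40. Bax, the other effector and not among the 10, had 98.5 and 84.9 CPM in Mut-labelled and 90.2 and 85.1 CPM in WT mRNA libraries, with a log2 fold change of 0.07.

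Apaf1 (ENSMUSG00000019979), the scaffold of the apoptosome, was higher in Mut-labelled cells in both kinds of library and passed the test in total RNA. In mRNA libraries it had 110 and 133 CPM in the Mut-labelled group, against 72.2 and 73.8 CPM in WT. This was 1.67-fold higher (log2 fold change 0.74, SE 0.14, 95% interval 0.39 to 1.09), with an edgeR adjusted p of 0.0564. In total RNA it had 106 and 112 CPM in Mut-labelled libraries, from 100 and 136 counts, against 57.3 and 65.0 CPM in WT, from 60 and 66 counts. There it rose 1.78-fold (log2 fold change 0.83, SE 0.20, 95% interval 0.40 to 1.26), with an edgeR adjusted p of 0.0208. The total RNA call was lost without Mut-labelled replicate 2 or WT replicate 1 (edgeR adjusted p 0.113 and 0.0940) and by DESeq2 (adjusted p 0.259), and under ERCC scaling the direction turned to -0.26. Over 11 alternatives its adjusted p ran from 0.00129 to 0.683 in total RNA. The mRNA value passed by edgeR without Mut-labelled replicate 1 (adjusted p 0.0275) and in 6 of 11 alternatives in all, from 4.73e-05 to 0.999.

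**Figure D3:**
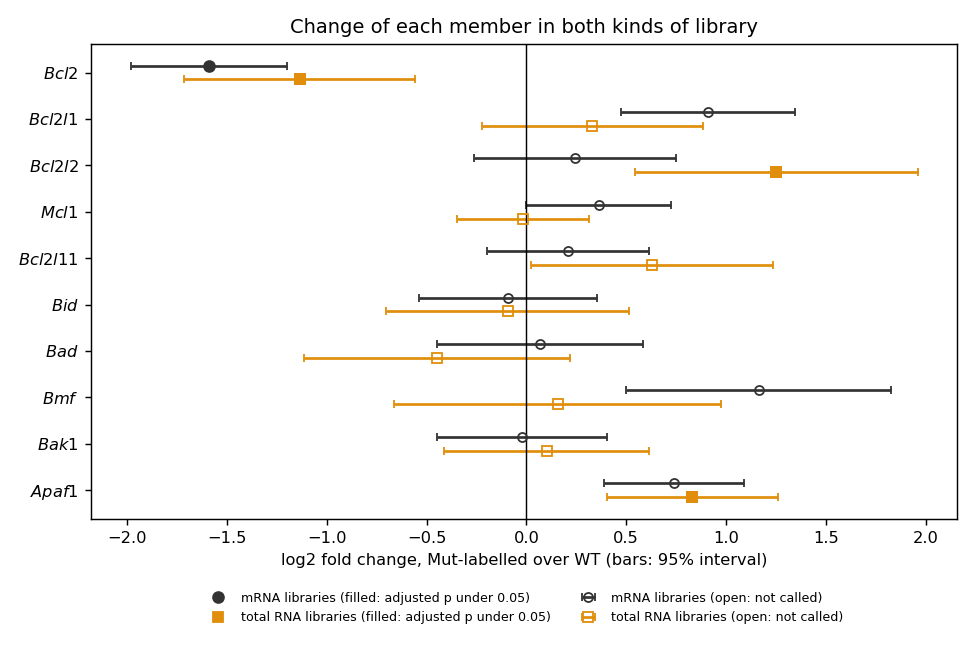
Log2 fold change of each of the 10 genes, Mut-labelled over WT, with its 95% interval from edgeR, for mRNA and total RNA libraries; filled symbols mark an adjusted p under 0.05. Bcl2 lies to the left of 0 in both kinds of library and Apaf1 to the right, with values of -1.59 and 0.74 in mRNA and -1.14 and 0.83 in total RNA.

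In the total RNA libraries, 3 of the 10 genes were called, Bcl2 lower and Bcl2l2 and Apaf1 higher. Over the 10546 genes tested there, edgeR called 4.23%, of which 2.55% of genes were higher and 1.68% lower. An unadjusted p under 0.05 was met by 4 of the 10, the fourth being Bcl2l11, against 14.8% of all genes. Mut-labelled libraries lay wholly above WT for 3 and wholly below for 2, against 22.5 and 21.4% of genes. The median log2 fold change of the 10 was 0.13, beside -0.00 over all genes tested.

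Bcl2 had 64.5 and 28.8 CPM in Mut-labelled total RNA libraries, from 61 and 35 counts, against 101 and 98.4 CPM in WT, from 106 and 100 counts. The Mut-labelled libraries were both below WT, and they lay farther apart than the WT libraries did. Bcl2 fell there by 1.14 on the log2 scale (SE 0.28, 95% interval -1.71 to -0.56), with an edgeR adjusted p of 0.0192. Bcl2 was not called without Mut-labelled replicate 2 (log2 fold change -0.63) or by DESeq2 (adjusted p 0.134). With all 8 libraries in 1 fit it was not called either (log2 fold change -1.09, edgeR adjusted p 0.132). Over 11 alternatives its adjusted p ran from 1.41e-12 to 0.339.

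Bcl2l2 had 44.4 and 32.9 CPM in Mut-labelled total RNA libraries, from 42 and 40 counts, against 14.3 and 17.7 CPM in WT, from 15 and 18 counts. Both Mut-labelled libraries were above both WT libraries, and Bcl2l2 rose by a log2 fold change of 1.25 (SE 0.34, 95% interval 0.54 to 1.96), with an edgeR adjusted p of 0.0405. The call was lost without Mut-labelled replicate 1 (log2 fold change 1.04) and without WT replicate 1 (1.11). It was also lost by DESeq2 (adjusted p 0.431) and with all 8 libraries in 1 fit (edgeR adjusted p 0.0734). Under ERCC scaling it was lost without and with the replicate block (log2 fold changes 0.23 and 0.14). Over 11 alternatives the adjusted p ran from 0.00491 to 0.746. Bcl2l11 had 41.2 and 42.7 CPM in Mut-labelled and 29.6 and 24.6 CPM in WT total RNA libraries, with a log2 fold change of 0.63 (95% interval 0.02 to 1.23) and an edgeR adjusted p of 0.309.

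Bcl2l1, which did not overlap between groups in mRNA, overlapped in total RNA, at 123 and 96.2 CPM in Mut-labelled and 118 and 54.1 CPM in WT libraries. The WT libraries were unlike each other, and without WT replicate 1 Bcl2l1 passed at a log2 fold change of 1.01 (edgeR adjusted p 0.00885). Mcl1 had 357 and 385 CPM in Mut-labelled and 352 and 400 CPM in WT total RNA libraries. Bmf had 24.3 and 17.3 CPM in Mut-labelled and 17.2 and 19.7 CPM in WT total RNA libraries, from 18 to 23 counts in each. Bad, Bid and Bak1 had log2 fold changes of -0.45, -0.09 and 0.10 in total RNA, none of them called.

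An interaction term in a fit of all 8 libraries tested whether the genotype difference was unlike in mRNA and in total RNA. None of the 10 passed by edgeR, and none of the 17416 genes tested did (0%), while 3.94% of genes had an unadjusted p under 0.05. With each sorted sample as a block over its 2 libraries, 111 genes were called, 4 with a higher and 107 with a lower log2 fold change in total RNA than in mRNA, and none of the 10 was among them. Without the block, only Bcl2l2 of the 10 had an unadjusted p under 0.05, with a log2 fold change 1.06 higher in total RNA than in mRNA (95% interval 0.23 to 1.90, edgeR unadjusted p 0.0175). For Bcl2 the difference was 0.50 (95% interval -0.34 to 1.35), and for Bmf it was -0.96 (95% interval -1.98 to 0.06). The intervals of Bcl2 and Bmf include 0.

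The 10 genes differed widely in level. On the scale of CPM per kilobase, Mcl1 was the highest of the 10 in both groups, at 126 ± 1.35 in Mut-labelled and 98.1 ± 10.6 in WT mRNA libraries (mean ± SD, n = 2 each). Bak1 came next, at 42.4 ± 6.65 in Mut-labelled and 43.1 ± 6.25 in WT. Bcl2 averaged 4.52 ± 0.71 in Mut-labelled libraries, where it ranked 8 of the 10, and 13.6 ± 0.99 in WT, where it ranked 3. In WT its nearest neighbours were Bid at 13.5 ± 2.75 and Bcl2l1 at 11.4 ± 1.34, and Bcl2 and Bid did not differ beyond their spread. In Mut-labelled libraries its neighbours were Bcl2l2 at 9.08 ± 1.96 and Bcl2l11 at 4.39 ± 0.37, the last of which lay within the spread of Bcl2. Bcl2l1 ranked 3 in Mut-labelled libraries, at 21.3 ± 3.94, and 5 in WT. Apaf1 ranked 4 in Mut-labelled libraries, at 13.5 ± 1.80, and 7 in WT, at 8.09 ± 0.12. Bmf was the lowest in both, at 3.61 ± 0.34 in Mut-labelled and 1.61 ± 0.41 in WT libraries.

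**Figure D4:**
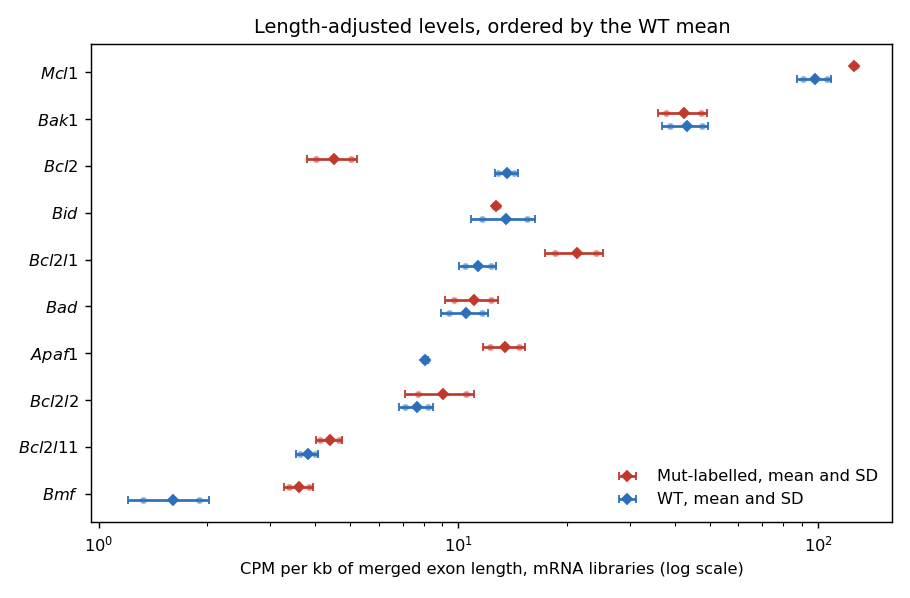
Level of each of the 10 genes per kilobase of merged exon in mRNA libraries (CPM per kilobase, log axis), with Mut-labelled above WT in each line, faint points for libraries, diamonds for the mean and bars for the SD (n = 2 each). Mcl1 is highest in both groups and Bmf lowest, and Bcl2 ranks 8 in Mut-labelled and 3 in WT libraries.

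The library kit does not mark strand, so reads of overlapping genes cannot be told apart. Bcl2 shares 6.09% of its exon bases with the antisense gene D630008O14Rik, which had 0 and 2 counts in Mut-labelled and 12 and 8 in WT mRNA libraries. Bcl2l2 shares 13.3% with Gm20521 on the same strand, which had at most 4 counts in any mRNA library. Bad, Bak1 and Bid share 20.5, 18.2 and 17.7% with Gpr137, Ggnbp1 and Bcl2l13, which are on the opposite strand and expressed here.

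The genes most like Bcl2 were found by the root mean square difference of log2 CPM, centred within each kind of library, over all 8 libraries and 10508 genes. The closest were Mmp15, a membrane-bound matrix metalloproteinase, at 0.149, Galnt12, a glycosyltransferase, at 0.151, and Vwf, von Willebrand factor, at 0.163. The median over all genes was 0.784. Vwf had 58.7 and 40.1 CPM in Mut-labelled and 122 and 123 CPM in WT mRNA libraries, below WT in both Mut-labelled libraries. Genes picked by closeness to Bcl2 in these libraries must move as it does, so this likeness is no separate result. In total RNA edgeR called Vwf (adjusted p 0.00862) but not Mmp15 or Galnt12 (edgeR adjusted p 0.409 and 0.423).

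Beyond the 10, 69 genes of the apoptosis pathway were listed in 5 groups, of which 67 had an entry. In the mRNA libraries 63 were tested and edgeR called 0, against 3.64% of all genes. An unadjusted p under 0.05 was met by 9, against 15.7% of all genes, and DESeq2 called 2, against 9.43% of all genes. Their median log2 fold change was 0.09, beside -0.01 over all genes. In total RNA 53 were tested and edgeR called 2, both higher, against 4.23% of all genes, while DESeq2 called 0, against 1.96%. Counted in either direction, the shares called were no larger than those of all genes. Of all genes edgeR called 2.55% higher in total RNA, the direction of both calls there. An unadjusted p under 0.05 was met in total RNA by 12 of the 53, against 14.8% of all genes, a larger share. The median in total RNA was 0.16, beside -0.00. The 2 were Naip5, a mouse inflammasome sensor of the NAIP family, and Stat5b, a transcription factor of cytokine signalling known to activate Bcl2l1.

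Naip5 had 33.8 and 58.3 CPM in Mut-labelled total RNA libraries, against 14.3 and 14.8 CPM in WT, a log2 fold change of 1.68 with an edgeR adjusted p of 0.00631. In mRNA it had 30.3 and 72.6 CPM in Mut-labelled and 25.7 and 29.5 CPM in WT libraries (edgeR adjusted p 0.373), so that Mut-labelled replicate 2 was the higher one in both kinds. Without that library the total RNA call was lost (log2 fold change 1.21). It was also lost by DESeq2 (adjusted p 0.0821), with all 8 libraries in 1 fit (edgeR adjusted p 0.144) and under ERCC scaling (edgeR adjusted p 0.484). Over 11 alternatives the adjusted p ran from 2.76e-05 to 0.484. Naip genes are related copies, and how reads matching more than 1 of them were counted is not given, so the value is uncertain. Naip2, not named by the rule, was above WT in both kinds of library without passing. Its log2 fold change was 1.22 in mRNA (edgeR adjusted p 0.0508) and 1.07 in total RNA (edgeR adjusted p 0.211). Stat5b had 287 and 327 CPM in Mut-labelled total RNA libraries, against 189 and 213 CPM in WT, a log2 fold change of 0.62 with an edgeR adjusted p of 0.0325. In mRNA it had 350 and 416 CPM in Mut-labelled and 267 and 274 CPM in WT libraries, a log2 fold change of 0.50 (edgeR adjusted p 0.167). The total RNA call for Stat5b was lost without Mut-labelled replicate 2 or WT replicate 1 (log2 fold changes 0.515 and 0.535). It was also lost by DESeq2 (adjusted p 0.17) and with all 8 libraries in 1 fit (edgeR adjusted p 0.0771). Under ERCC scaling the log2 fold change turned to -0.49 (over 11 alternatives adjusted p 0.000375 to 0.452).

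By group, the list of other BCL2 family members had 11 genes tested in mRNA, with 1 at an unadjusted p under 0.05. The most abundant were Bcl2l13, a mitochondrial member, with a log2 fold change of -0.24, and Bax. The list of apoptosome and caspase genes had 13 tested, with 1 at an unadjusted p under 0.05. Its most abundant were Parp1, a caspase substrate, at -0.18, and Casp2, an initiator caspase, at 0.17. Of 8 inhibitors of apoptosis 2, of 11 death receptor genes 3, and of 20 regulators of the family 2 had an unadjusted p under 0.05 in mRNA, a level that 15.7% of all genes met. In the death receptor list the most abundant were Tnfrsf1a, a TNF receptor, at 0.27, and Cflar, the inhibitor of caspase 8, at 0.49. In total RNA, where Apaf1 was called, 11 other apoptosome and caspase genes were tested, of which edgeR and DESeq2 called 0 and 1 had an unadjusted p under 0.05. That level was met there by 0 of 6 other BCL2 family members and 1 of 10 death receptor genes. It was met by 4 of 7 inhibitors of apoptosis and 6 of 19 regulators, against 14.8% of all genes.

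**Figure D5:**
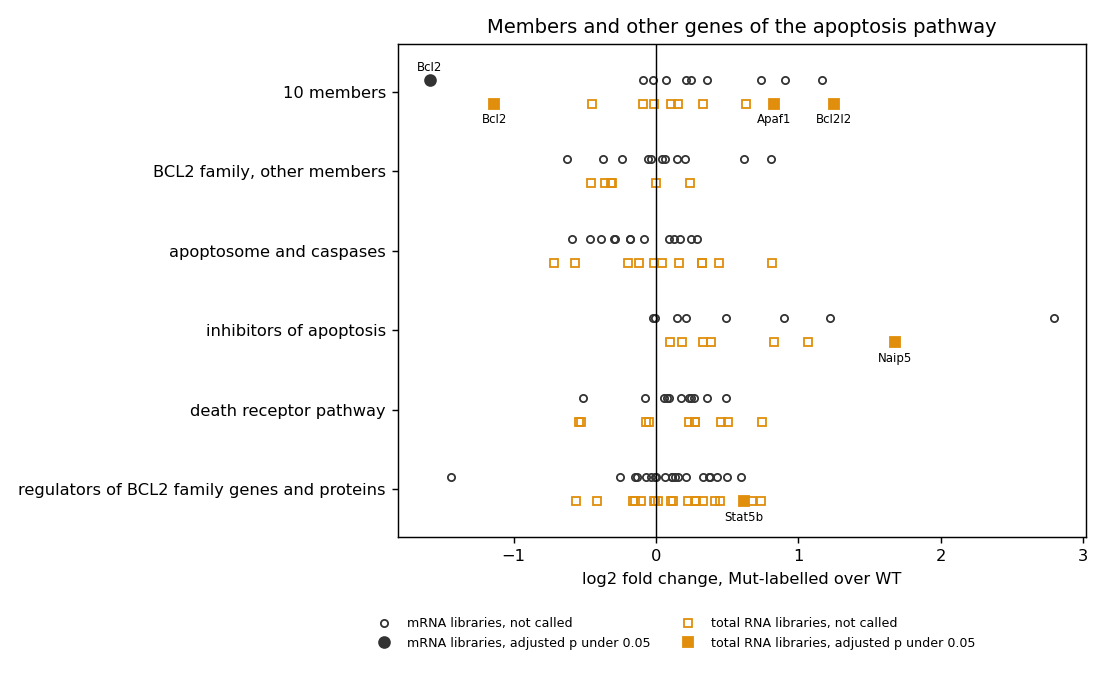
Log2 fold change, Mut-labelled over WT, of the 10 genes and of each tested gene of the 5 apoptosis lists, 1 symbol per gene and kind of library, with calls filled and named. Bcl2 is the filled symbol at -1.59 in mRNA, and Naip5 and Stat5b are the 2 filled symbols among the lists, both in total RNA.

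Markers of other cell types moved between the same libraries, and their calls stand beside shares over all genes of 1.75% higher and 1.89% lower in mRNA, and 2.55% higher and 1.68% lower in total RNA. Of 10 erythroid markers 5 were called lower in mRNA, and their sum was 485 and 368 CPM in Mut-labelled, against 1456 and 1155 CPM in WT libraries. Of 9 megakaryocyte markers 3 were called higher and 1, Vwf, lower, with sums of 2229 and 2024 CPM in Mut-labelled, against 936 and 860 CPM in WT libraries. Of 7 T and NK cell markers tested 2 were called lower, with sums of 37.2 and 36.0 CPM in Mut-labelled, against 97.3 and 85.3 CPM in WT libraries. The 2 were Nkg7 and Lck, and 3 of the other 5 had a positive log2 fold change. Of 12 neutrophil markers tested in mRNA 2 were called higher by edgeR and 10 by DESeq2. An unadjusted p under 0.05 was met by 10, and the median log2 fold change was 2.79. Mpo and Elane overlapped between the groups and were not among those 10. The neutrophil sums overlapped, at 2546 and 1261 CPM in Mut-labelled and 1680 and 1430 CPM in WT libraries, and Mpo made up most of each, at 1884 and 1043 CPM in Mut-labelled and 1497 and 1296 CPM in WT. The neutrophil gene S100a8 had 91.8 and 18.4 CPM in Mut-labelled, against 4.90 and 5.88 CPM in WT mRNA libraries (edgeR adjusted p 0.0808). B cell and plasma cell markers held no edgeR or DESeq2 call, with 1 of 7 and 0 of 6 at an unadjusted p under 0.05. The B cell sums were 41.5 and 31.7 CPM in Mut-labelled and 34.5 and 48.2 CPM in WT libraries, and the plasma cell sums were 552 and 2273 CPM in Mut-labelled and 957 and 9652 CPM in WT libraries. Of 8 macrophage and dendritic cell markers 1 was called lower, with sums of 69.8 and 49.98 CPM in Mut-labelled and 62.6 and 54.2 CPM in WT libraries. Of 8 stromal and endothelial markers 1 was called higher and 1 lower, with sums of 243 and 169 CPM in Mut-labelled and 263 and 219 CPM in WT libraries. No marker of these lists was at 0 in all 4 mRNA libraries, and in total RNA Ms4a1 and Vpreb1, both of the B cell list, were. In total RNA 5 of 7 erythroid markers tested were called lower, with sums of 273 and 284 CPM in Mut-labelled, against 754 and 735 CPM in WT libraries. Of 7 megakaryocyte markers tested there 3 were called higher and 1 lower, with sums of 1551 and 1401 CPM in Mut-labelled, against 621 and 710 CPM in WT libraries. Of 8 neutrophil markers tested there 6 were called higher by edgeR and 2 by DESeq2. Their sums overlapped, at 1682 and 980 CPM in Mut-labelled and 1009 and 1165 CPM in WT total RNA libraries. The part of these cell types in the Bcl2, Bcl2l1, Bcl2l2, Bmf and Apaf1 values was not tested.

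All folds above are relative to gene counts per library. Scaling to the ERCC transcripts moved the median log2 fold change of all genes to -0.38 in mRNA and -1.10 in total RNA, and it turned the sign of Bcl2l2, Mcl1, Bcl2l11 and Bad in mRNA and of Bcl2l1, Bcl2l11, Bmf, Bak1 and Apaf1 in total RNA. With ERCC scaling the calls over all genes were 16 higher and 154 lower in mRNA and 13 higher and 360 lower in total RNA, against 300 higher and 324 lower in mRNA and 269 higher and 177 lower in total RNA with TMM. Bcl2 kept its direction under every scaling tried in both kinds of library.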

How the data were processed

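RNA was sequenced from 2 Mut-labelled and 2 WT sorts, as mRNA and total RNA libraries. The authors deposited raw counts per gene, not normalized. Per the submitters' processing notes, TopHat, featureCounts and edgeR were used with the mm9 build. The annotation release, strand setting and treatment of multiply mapped reads were not given in the sources used here. Per the labels' protocols, the library kit was NEBNext Ultra.

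Mut-labelled libraries were set against WT libraries of the same kind with edgeR 4.0.16 under R 4.3.3 (TMM scaling, its own filter on low counts, quasi-likelihood test, two-sided, Benjamini-Hochberg adjustment over all genes tested, call at 0.05). ERCC (92) and rRNA (3) entries were left out of library sizes and tests. Names and exon lengths came from GENCODE M21, a different build, and 32919 identifiers had a name. Named pathway genes were those called in either kind of library, otherwise the 2 most abundant of each list. The genes and lists were chosen with earlier results of these data known. Nothing says that samples of a group were separate animals. The p-values set each group difference against the spread between these samples, estimated with the help of all genes. That spread may be technical, so the p-values may not carry over to other animals. Libraries of a group differed beyond counting noise (chi-square over degrees of freedom 60.9 and 65.1 between Mut-labelled and between WT mRNA libraries, and 2.60 and 3.13 between total RNA libraries), which leaves technical repeats possible. Alternatives were other scalings, DESeq2 1.42.0, no filter, a replicate block, 1 fit of all libraries, and leaving out each library. ERCC scaling with the block was added after seeing the data.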

Additional observations from a re-analysis of the deposited data

How the results depend on the processing

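In mRNA libraries 1 of the 10 genes was called, and the count was 0 under ERCC scaling, 4 by DESeq2, 3 without a filter, 3 with all 8 libraries in 1 fit, 5 with the replicate block, 6 with ERCC scaling and the replicate block, and 1 to 2 leaving out each library. In total RNA it was 3, and became 1 under ERCC scaling, 0 by DESeq2, 1 with all 8 libraries in 1 fit, 7 with ERCC scaling and the replicate block, and 1 to 3 leaving out each library. Over all genes, the 624 calls in mRNA became 170 under ERCC scaling, 1615 by DESeq2, 2870 with the replicate block and 7752 with both (604 higher, 7148 lower). The 446 calls in total RNA became 203 by DESeq2, 724 without a filter, 273 with all 8 libraries in 1 fit, 870 with the replicate block and 8815 with both (79 higher, 8736 lower). Same-numbered samples deviated together at a correlation of 0.32 in mRNA and 0.22 in total RNA. The sources used here give them only a shared number, and with 2 pairs what else they share was not tested. In both groups the spike-in share was higher in replicate 1 in mRNA and in replicate 2 in total RNA. In mRNA the block added Bcl2l1, Mcl1, Bmf and Apaf1 to the call of Bcl2. The interaction called 0 of the 10 under every alternative run.

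Log2 fold changes turned sign in mRNA under ERCC scaling for Bcl2l2 (-0.082), Mcl1 (-0.045), Bcl2l11 (-0.11), Bad (-0.32), Bax (-0.34), Casp2 (-0.22) and Tnfrsf1a (-0.14). With the replicate block added these were -0.17, -0.036, -0.19, -0.33, -0.34, -0.23 and -0.14. Leaving out each mRNA library gave -0.11 to 0.24 for Bad, -0.047 to 0.18 for Bax, -0.19 to 0.14 for Bak1 and -0.27 to 0.13 for Bid, each with both signs. In total RNA, ERCC scaling turned Bcl2l1 (-0.78), Bcl2l11 (-0.49), Bmf (-0.89), Bak1 (-0.88), Apaf1 (-0.26), Casp2 (-1.08), Tnfrsf1a (-0.84), Cflar (-0.72) and Stat5b (-0.49). With the replicate block added these were -0.70, -0.48, -0.96, -1.03, -0.29, -1.09, -0.89, -0.68 and -0.51. All 8 libraries in 1 fit turned Mcl1 in total RNA to 0.029. Leaving out each total RNA library gave both signs for Bcl2l1 (-0.12 to 1.01), Mcl1 (-0.10 to 0.083), Bmf (-0.084 to 0.39), Bak1 (-0.33 to 0.47) and Casp2 (-0.074 to 0.14). The cause was not tested. Total RNA depth, with 15 to 136 counts for the 3 genes called there, limits those values.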

Other observations

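Outside the genes named by rule, Bbc3, the BH3-only gene that encodes PUMA, is described here after its values were seen. It had 48.8 and 60.1 CPM in Mut-labelled mRNA libraries, against 31.3 and 39.8 CPM in WT, a log2 fold change of 0.62 that did not pass (edgeR adjusted p 0.181). In total RNA it ran the other way, at 47.5 and 43.6 CPM in Mut-labelled libraries, against 54.4 and 62.0 CPM in WT (log2 fold change -0.36, edgeR adjusted p 0.579). The groups did not overlap in either kind of library. The initiator caspase of the intrinsic pathway, Casp9, had 29.1 and 38.1 CPM in Mut-labelled and 29.9 and 31.6 CPM in WT mRNA libraries, which overlapped.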
